A study of Homo sapiens with 7 samples.

Results

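Isolated sites of HOXB13 acetylated at lysine 13 (HOXB13-K13ac) are described here, that is, regions of enrichment with no other such region close by. They were selected on peak position alone, from the peak lists of replicates 1 and 2. Peaks of the 2 lists were merged where they shared at least 1 bp, and a merged region with a peak of both lists was kept as a site. An autosomal site was isolated when no other site lay within 100 kb on either side. This held for 1976 of 25963 autosomal sites (7.61%, exact 95% binomial interval 7.29 to 7.94). The 2 lists gave 53083 merged regions, of which 26763 were sites, chromosomes X and Y included.

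The study profiled chromatin of C4-2B cells by ChIP-seq. C4-2B is an established, castration-resistant line derived from LNCaP prostate cancer cells, and all 7 libraries came from this single line. Every library was made from cells kept in charcoal-stripped serum, which holds little steroid hormone, with no further agent. The antibody against HOXB13-K13ac gave 3 libraries, and 2 IgG precipitations and 2 input libraries are the controls.

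HOXB13 is a homeodomain transcription factor that marks the prostate lineage and binds DNA at AT-rich elements, often near sites of the androgen receptor and FOXA1. Acetylation of lysines is a common modification of histones and of the factors that act on them, and acetylated enhancers recruit bromodomain proteins. Regulatory sites of lineage factors tend to lie in groups, and the densest groups are called super-enhancers. An isolated site is the opposite arrangement, a single stretch of enrichment in a long interval without another.

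All values are those of the deposited peak lists, on hg19 with positions counted from 1. Fold enrichment is the authors' value at a peak's summit over the local background of its control. Where a site held several peaks of a list, the highest was taken. The replicate 1 list held 41303 peaks and its control is not named. The replicate 2 and replicate 3 lists were called against input and held 45216 and 18232 peaks, and replicate 2 also has a list of 7506 peaks against IgG. Of the peaks against IgG, only 21.5% passed a q of 0.05. A list of 36205 peaks against input is tied to no library by the labels. The names of the lists of replicates 1 and 3 differ by 1 punctuation mark, and their assignment rests on it. Per the labels, replicate 1 carries another series number than replicates 2 and 3, so a difference between the series cannot be told apart from one between replicates 1 and 2. Read depth is unknown, so peak numbers could not be scaled to it, and the labels do not state that the replicates came from separate cultures. An annotation or genome of hg19 was not used here, so sites are named by position, without genes or sequence.

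The strongest isolated sites were ranked by the lower of their fold enrichments in replicates 1 and 2. The first, chr7:74071102-74072789, reached 33.2 in replicate 1, 30.7 in replicate 2 and 6.43 in replicate 3, beside 7.68 for replicate 2 over IgG. Its nearest sites lay 191 kb before and 416 kb after it. The second, chr6:155053709-155055353, had 26.4, 25.8 and 5.23 in replicates 1 to 3 and 5.84 over IgG. In both sites replicate 1 was slightly above replicate 2, whereas in the other 8 of the 10 strongest replicate 2 was the higher.

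The widest difference between these libraries among the 10 was at chr13:30168316-30169858, with 22.7 in replicate 1, 43.3 in replicate 2, 6.81 in replicate 3 and 8.15 over IgG. This last value was the highest over IgG of any isolated site. At chr5:176560009-176562390 the values were 24.0, 32.5 and 5.46, and the fold of 2.96 over IgG came with a −log10 q of 0. Enrichment over input was thus high at this site while the comparison with IgG gave no significant peak.

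Of the remaining 6 among the 10 strongest, 3 lay on chromosome 1. The site chr1:234508173-234510023 had fold enrichments of 21.9, 33.4 and 10.5 in replicates 1 to 3 and no peak against IgG. The site chr1:91486657-91488891 had 21.9, 38.1 and 6.004, with 5.36 over IgG. The site chr1:245132658-245135296 had 21.0, 25.8 and 7.80, with 3.80 over IgG, and its next site lay 1.03 Mb after it. Replicate 3 was therefore lowest of the 3 libraries at each of these sites, by a wide margin.

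Chromosome 15 held another 2 of the 10 strongest. At chr15:41407315-41409756 replicates 1 to 3 had 21.9, 37.8 and 6.55, with 5.31 over IgG. At chr15:35837620-35839142 replicates 1 and 2 had 21.4 and 24.2, with 3.93 over IgG, and replicate 3 had no peak. The last of the 10, chr21:19190912-19192282, had 21.5, 22.5 and 7.33, and 3.20 over IgG. In all, 9 of the 10 had a replicate 3 peak and 9 a peak against IgG, of which 6 reached a q of 0.05 or less. All 10 were in the authors' deposited table that no label ties to a library, with fold enrichments from 14.7 to 32.2.

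A typical isolated site was much weaker. The site nearest the median of the lower fold, chr18:68567877-68568622, was 746 bp wide with 5.34 in replicate 1 and 11.0 in replicate 2. It had no peak in replicate 3 or against IgG. Its neighbours lay 610 kb before and 1.94 Mb after it.

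**Figure D1:**
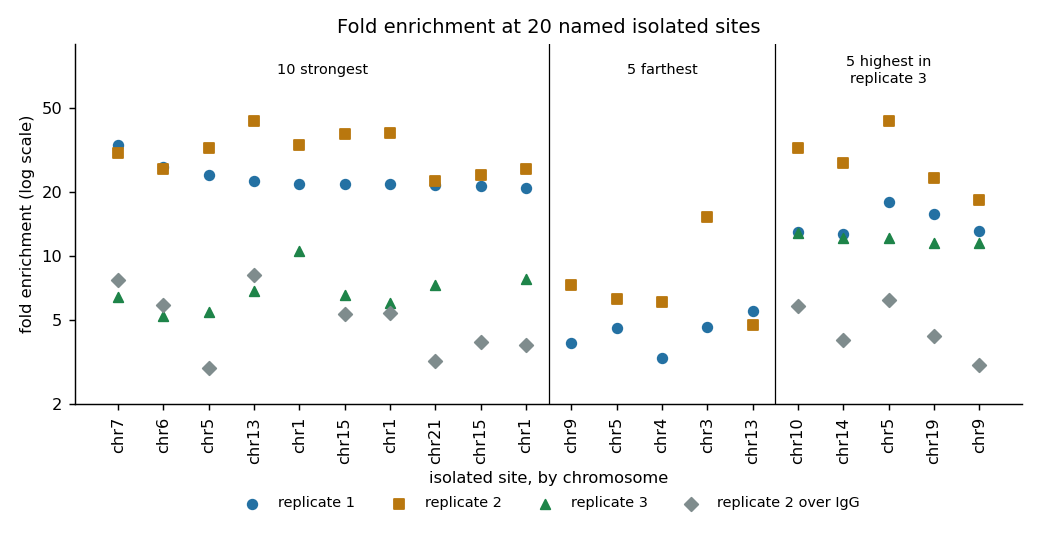
Fold enrichment (log axis) at the 10 strongest isolated sites, the 5 farthest from any other site and the 5 with the highest replicate 3 fold, each labelled by its chromosome; a missing symbol means that the list had no peak there. Among the strongest sites replicates 1 and 2 lie above 20 and replicate 3 between 5.23 and 10.5, and the 5 farthest sites have no replicate 3 or IgG symbol. Of all isolated sites, 16.6% have a replicate 3 peak and 19.6% a peak against IgG.

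Distance to the nearest other site had a median of 173 kb over the 1976 isolated sites (interquartile range 127 to 283 kb) and reached 3.33 Mb. The nearest site was 100 to 200 kb away for 1164 of them (58.9%), 200 to 500 kb for 602 (30.5%), 500 kb to 1 Mb for 157 (7.95%) and over 1 Mb for 53 (2.68%). In contrast, the other autosomal sites had a median distance of 2.34 kb. Of the isolated sites, 14 were the first or last site of their chromosome.

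Just inside the limit were chr11:72144859-72145649, whose nearest site was 100015 bp away, and chr9:90588497-90590576, at 100221 bp. Their fold enrichments in replicates 1 and 2 were 9.80 and 15.6 for the former and 5.82 and 6.29 for the latter. Just outside it were chr6:151186823-151188088, at 99985 bp, with 11.99 and 7.86, and chr21:40176805-40178590, at 99978 bp, with 7.22 and 12.6. In replicate 1 the highest of the 4 was outside the limit, and in replicate 2 it was inside.

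The site farthest from any other was chr9:41954510-41955098, with 3.33 Mb before it and 24.6 Mb after it. Chromosome 9 carries a large block of heterochromatin beside its centromere, where few reads can be placed. This site was 589 bp wide, and its fold enrichments were 3.88 in replicate 1 and 7.30 in replicate 2. Next in order was chr5:23506793-23507626, 2.50 Mb from its nearest site, with 4.57 and 6.29. The site chr4:136784894-136785286 was 393 bp wide and 2.38 Mb from its nearest site, with 3.29 and 6.08.

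The fourth farthest, chr3:953696-955295, was the first site of its chromosome and was unlike the rest in replicate 2, where its fold was 15.3, compared with 4.65 in replicate 1. The fifth, chr13:88463049-88463529, had 5.50 and 4.71 and was 2.16 Mb from its nearest site. None of these 5 sites had a peak in replicate 3 or against IgG. Most isolated sites had neither: the shares were 16.6% and 19.6% over all of them. Beyond 1 Mb they were 11.3% and 5.66%. In the authors' deposited table without a library label, those on chromosomes 5, 3 and 13 were present, with fold enrichments of 4.38, 11.5 and 4.01.

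Among the isolated sites, enrichment was lower the farther the nearest site lay. From 100 to 200 kb to over 1 Mb, the 4 classes had median folds of 5.85, 5.37, 4.97 and 4.63 in replicate 1 and of 8.90, 7.91, 7.23 and 6.22 in replicate 2. Median width went from 1042 to 940, 824 and 791 bp. Sites nearer than 100 kb showed no such order, with medians in replicate 1 of 5.65 under 1 kb, 5.82 at 1 to 10 kb, 6.30 at 10 to 50 kb and 6.27 at 50 to 100 kb. The highest medians of both libraries were therefore those of sites 10 to 50 kb apart, where replicate 2 had 9.94.

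Isolated sites as a whole were close in fold to the other sites in replicate 1 and lower in replicate 2. Since a called peak in each library was the condition for a site, these values are a description and were not tested. In replicate 1 the median fold was 5.58 at isolated sites (interquartile range 3.82 to 9.05) and 5.85 at the others (4.08 to 8.97). In replicate 2 it was 8.37 (5.92 to 13.2) and 9.56 (6.52 to 15.1). A −log10 q of at least 5 in both libraries was less frequent at isolated sites. It was reached at 77.6% of them (75.7 to 79.5) and at 84.1% of the others (83.7 to 84.6). The log2 ratio of the replicate 2 fold to the replicate 1 fold had a median of 0.61 at isolated and 0.74 at other sites. Replicate 2 was the higher library at 84.7% of isolated sites (83.1 to 86.3) and at 88.8% of the others (88.4 to 89.2).

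This difference between the libraries was also seen within chromosomes. The median fold of isolated sites in replicate 2 was below that of the other sites on all 22 autosomes. In replicate 1 it was below on 11, above on 10 and equal on 1. The ratio of replicate 2 to replicate 1 was lower at isolated sites on 21 of 22 autosomes, the exception being chromosome 18.

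**Figure D2:**
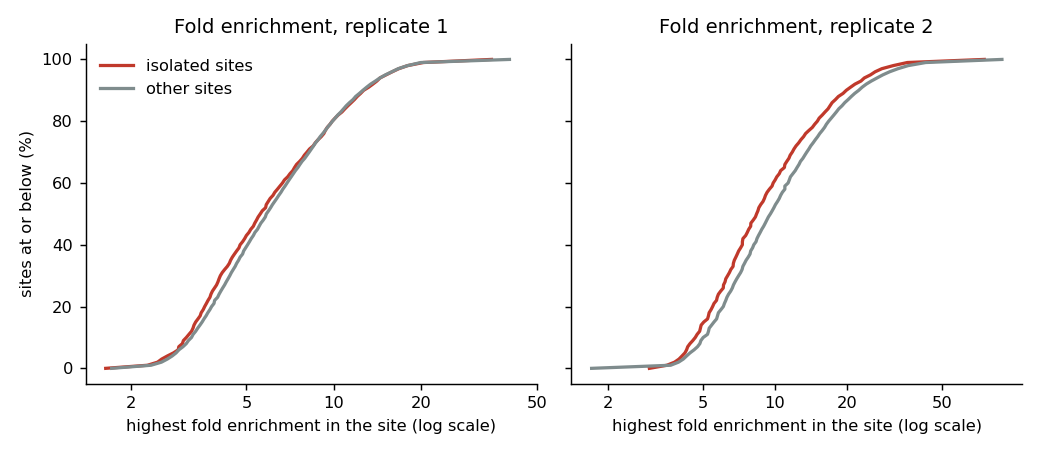
Cumulative share of sites (y axis, %) at or below a fold enrichment (x axis, log scale) for isolated sites (red) and the other autosomal sites (grey), in replicate 1 (left) and replicate 2 (right). In replicate 1 the curves come together at the upper end of the interquartile range (9.05 and 8.97), while in replicate 2 the curve of isolated sites stays to the left (median 8.37 against 9.56).

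Ranking all sites by fold showed the same contrast. In the weakest 10% of sites by replicate 2 fold, 11.1% were isolated (9.90 to 12.4), and in the strongest 10% 5.74% were (4.88 to 6.70). By replicate 1 fold these shares were 8.92% (7.85 to 10.1) and 7.82% (6.81 to 8.92), with the lowest share, 6.82%, in the sixth part of 10. Among strong sites, 338 isolated ones (17.1%, 15.5 to 18.8) reached a fold of 10 in both libraries, beside 17.9% of the other sites (17.4 to 18.4).

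In shape the isolated sites resembled the rest in number of peaks and were slightly narrower. Their median width was 978 bp (interquartile range 656 to 1467), beside 1021 bp (708 to 1536). The latter median pools unlike classes. It was 918 bp for the 10904 sites under 1 kb from another site. At 1 to 10, 10 to 50 and 50 to 100 kb it was 1195.5, 1128 and 1094 bp. A single peak of each library made up 80.0% of isolated sites (78.1 to 81.7) and 79.5% of the others (79.0 to 80.0). Broad sites were fewer, with 183 isolated sites wider than 2 kb (9.26%, 8.02 to 10.6), compared with 12.8% of the others (12.4 to 13.2). The widest, named after its value was seen, was chr7:155708527-155715533 at 7007 bp, with fold enrichments of 18.6, 27.7 and 4.12 in replicates 1 to 3.

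Summits of replicates 1 and 2 lay a median of 78 bp apart at isolated sites and 80 bp apart at the others. They were within 100 bp at 58.9% of isolated sites (56.7 to 61.1) and 57.8% of the others (57.1 to 58.4). Fold enrichments of replicates 1 and 2 ranked alike across the 1976 isolated sites (Spearman's rho 0.69) and across the 23987 others (0.71). These correlations are across sites that had to have a peak in both libraries, and sites are not replicates.

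Replicate 3 did not enter the choice of sites. It carries the same series number as replicate 2, and whether it came from a separate culture is not stated. A replicate 3 peak lay in 329 isolated sites (16.6%, 15.0 to 18.4), beside 17.5% of all autosomal sites. Among the other sites the share was 17.6% (17.08 to 18.05), so the intervals overlapped. These pooled shares hide an order by distance. Among the others 14.3% (13.6 to 14.9) had a replicate 3 peak where the nearest site was under 1 kb away, 19.4% at 1 to 10 kb, 21.1% (20.1 to 22.1) at 10 to 50 kb and 19.9% (18.3 to 21.7) at 50 to 100 kb. Among isolated sites the share was 18.8% (16.6 to 21.2) at 100 to 200 kb, 14.1% (11.4 to 17.2) at 200 to 500 kb, 12.1% (7.45 to 18.3) at 500 kb to 1 Mb and 11.3% (4.27 to 23.03) beyond. Windows of the same width placed 50 kb before and after each isolated site held a replicate 3 peak in 28 of 3952 cases (0.709%, 0.471 to 1.02). The rule leaves no site of replicates 1 and 2 in these windows, so they are not a free background. The intervals cover counting error only, and with 1 such library no test between the groups of sites was made.

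Restricting the replicate 3 call lowered both shares together. When replicate 3 peaks had to reach 5 in −log10 q, 73 isolated sites remained (3.69%, 2.91 to 4.62), against 3.62% of the others (3.39 to 3.86). With any replicate 3 summit of a site within 100 bp of any replicate 2 summit there, the shares were 7.54% (6.41 to 8.79) and 8.02% (7.68 to 8.37). When each site was reduced to 250 bp on either side of its replicate 2 summit, so that widths were equal, they were 13.4% (11.9 to 15.0) and 13.8% (13.4 to 14.3). The last of these was chosen after seeing the data.

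Isolated sites with a replicate 3 peak were the stronger ones in the other libraries. Their median fold was 11.4 in replicate 1 (interquartile range 8.17 to 14.3) and 16.0 in replicate 2 (11.1 to 22.8), and their median width was 1557 bp. The 1647 without one had medians of 4.96 (3.66 to 7.40), 7.55 (5.65 to 11.0) and 874 bp. Replicate 3 folds themselves were low at isolated sites, with a median of 5.31 (4.37 to 6.33) and a maximum of 12.9, and at the other sites, with a median of 5.13.

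At equal strength, isolated and other sites were in replicate 3 about as often, with 1 exception. Sites were divided into 4 equal parts by replicate 2 fold. From weakest to strongest, 2.92%, 7.05%, 22.1% and 44.6% of the isolated sites had a replicate 3 peak, and 3.78%, 6.94%, 16.7% and 42.1% of the others. The intervals were apart only in the third part, at 18.3 to 26.3 for isolated and 15.8 to 17.7 for other sites. By replicate 1 fold the shares were 2.04%, 3.94%, 16.0% and 46.0% for isolated sites and 2.49%, 5.97%, 17.4% and 44.3% for the others. There the third part showed no such gap (12.7 to 19.8 and 16.4 to 18.4), so the exception depends on the library used for ranking.

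**Figure D3:**
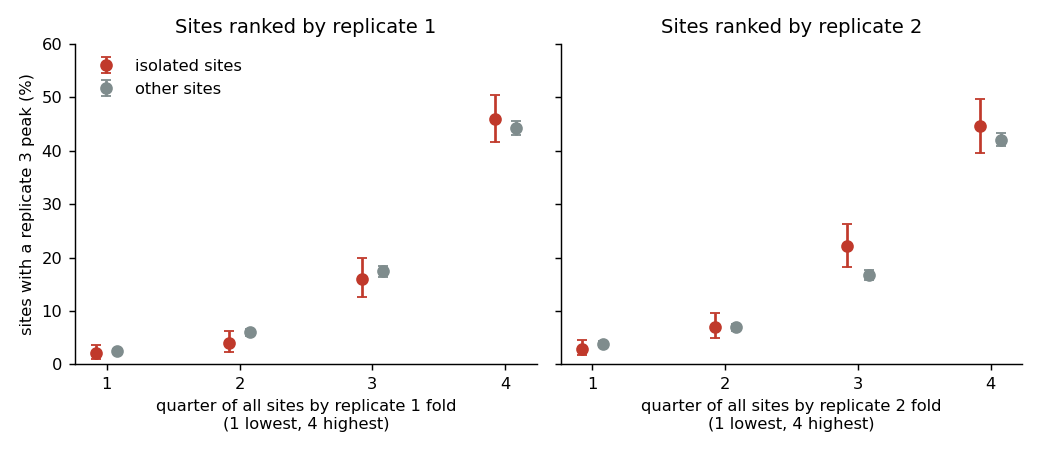
Share of sites with a replicate 3 peak (y axis, %, bars are exact 95% binomial intervals) in 4 equal parts of all autosomal sites ranked by replicate 1 fold (left) or replicate 2 fold (right), for isolated (red) and other sites (grey). The share rises from 2.04% to 46.0% at isolated sites by replicate 1 and from 2.92% to 44.6% by replicate 2, with the grey points close by.

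The highest replicate 3 fold at an isolated site was 12.9, at chr10:76583762-76586825, where replicates 1 and 2 had 13.0 and 32.2. This site was 3064 bp wide and had 5.79 over IgG. At chr14:59949815-59951946 replicate 3 had 12.1, beside 12.7 and 27.4 in replicates 1 and 2. In both, replicates 1 and 3 were nearly equal. The 10 strongest sites were ranked on replicates 1 and 2 instead, so a contrast with them in this respect follows from the rankings.

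Close in order, chr5:172753581-172759509 had a replicate 3 fold of 12.1, with 17.99 and 43.2 in replicates 1 and 2, and spanned 5929 bp. The site chr19:8942333-8943596 had 11.6, with 15.7 and 23.3. The fifth, chr9:38619710-38622094, had 11.5, with 13.1 and 18.3. It is the site before the farthest one described above, across an interval of 3.33 Mb, so a site present in every library and one of low fold in 2 libraries are neighbours there. All 5 also had a peak against IgG, from 3.06 at the chromosome 9 site to 6.19 at the chromosome 5 site.

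Where replicate 3 had a peak, its summit lay a median of 79 bp from the replicate 1 summit and 138 bp from that of replicate 2. At the other sites these distances were 90.5 and 132 bp. The distances and shares given here take the highest peak of each list in a site, whereas the stricter call above counted any pair of summits. Summits of replicates 3 and 1 were within 100 bp at 55.9% of the 329 sites (50.4 to 61.4), and those of replicates 3 and 2 at 40.4% (35.1 to 45.9). The same order was seen at the other sites, with 52.2% and 41.9%.

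Fewer peaks were called against IgG than against input. Replicate 2 peaks called against IgG lay in 387 isolated sites (19.6%, 17.9 to 21.4), beside 23.7% of all autosomal sites and 24.0% of the others (23.5 to 24.6). At equal replicate 2 fold, the library of the IgG call itself, the shares were close, and at equal replicate 1 fold they were lower at isolated sites. In the 4 parts by replicate 2 fold, isolated sites were called against IgG in 0 of 617 cases, which allows a share of up to 0.596% by the exact interval, and then in 1.14%, 23.9% and 69.4%. The others reached 0.0340%, 1.72%, 24.5% and 68.7% in the same parts. In the 4 parts by replicate 1 fold the shares were 1.70%, 5.47%, 22.3% and 51.2% at isolated sites and 2.27%, 9.27%, 28.4% and 56.0% at the others. The intervals were apart in the second part, at 3.57 to 7.97 and 8.55 to 10.03, and in the third, at 18.4 to 26.5 and 27.3 to 29.6. Replicate 2 also chose the sites, so its IgG shares are a description and were not tested. At an IgG q of 0.05 or less, 84 isolated sites remained (4.25%, 3.40 to 5.24), beside 5.84% of the others (5.55 to 6.15).

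In the authors' deposited table that no label ties to a library, 1608 isolated sites had a peak (81.4%, 79.6 to 83.1), beside 87.4% of all autosomal sites and 87.9% of the others. By replicate 2 fold the intervals were apart only in the weakest part, at 47.8% (43.8 to 51.8) and 56.4% (55.2 to 57.7). By replicate 1 fold, from weakest to strongest, isolated sites had 61.9%, 76.1%, 92.6% and 99.4%. The other sites had 70.4%, 85.2%, 96.1% and 99.5%, and only in the strongest part did the intervals overlap. In the windows 50 kb away, which the rule keeps free of sites, the share for the authors' deposited table was 0.455% (0.270 to 0.719). Its library is not known, so it is not an independent repeat.

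Combining the lists sorted the isolated sites by strength. A peak in replicate 3, against IgG and in the authors' deposited table without a library label together was found at 161 sites (8.15%), which had median folds of 12.7 in replicate 1 and 21.2 in replicate 2 and a median width of 1750 bp. Another 226 sites had a peak against IgG and in the authors' deposited table but none of replicate 3, with median folds of 9.28 and 16.7, and 166 had one of replicate 3 and in that table but none against IgG, with 9.57 and 11.6. The latter 2 groups were alike in replicate 1 and apart in replicate 2, the library of the IgG call. The largest class, 1055 sites (53.4%), had a peak in the authors' deposited table alone, with median folds of 5.04 and 7.91. At the low end, 366 sites (18.5%) were in none of these lists, with medians of 3.78 and 4.87 and 588 bp. Of the other autosomal sites, 9.10% (8.74 to 9.48) had all 3 peaks, 14.9% lacked only that of replicate 3, 8.40% lacked only that against IgG and 12.1% (11.7 to 12.5) had none. The shares of isolated sites were 8.15% (6.98 to 9.44), 11.4% (10.1 to 12.9), 8.40% and 18.5% (16.8 to 20.3). The last of these 4 classes was the one whose interval lay above that of the others. The second lay below that of the others (14.5 to 15.4). A peak in the authors' deposited table alone was found at 53.4% of isolated sites (51.2 to 55.6) and 55.4% of the others (54.8 to 56.0).

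Isolation was defined by sites of both libraries, so peaks of a single list could still lie nearby. Within 100 kb of an isolated site there were on average 0.520 regions of replicate 1 alone and 1.16 of replicate 2 alone, compared with 1.97 and 2.65 around the other sites. The same 2 lists define isolation, so these counts and the densities below are not a free comparison. Regions of either list alone averaged 6.60 per Mb at 10 to 100 kb from isolated sites and 9.11 at 100 to 200 kb. Neither was present at 525 isolated sites (26.6%, 24.6 to 28.6). With peaks of replicate 3 and of the authors' deposited table without a library label counted too, 268 isolated sites (13.6%, 12.1 to 15.2) had no other peak of these 4 lists within 100 kb. These 268 were not the weakest: their median folds were 6.68 in replicate 1 and 9.73 in replicate 2, against 5.45 and 8.28 for the remaining 1708. A replicate 3 peak lay in 19.4% of the 268 (14.8 to 24.7) and 16.2% of the 1708 (14.5 to 18.1).

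The single-list regions lay very close to the isolated sites or were spread thinly. Within 1 kb of the site's edge there were 58.5 regions of replicate 1 alone per Mb, falling to 7.59 at 1 to 2 kb, 2.78 at 2 to 5 kb and 1.81 at 50 to 100 kb. For replicate 2 alone the densities were 89.8, 15.2, 8.35 and 4.48 per Mb. Around the other sites the first kilobase was similar, at 60.9 and 77.8 per Mb, but the density at 50 to 100 kb was 8.11 and 11.2. At 50 to 100 kb the regions of both lists were thus sparser around isolated sites. In the first kilobase those of replicate 2 alone were denser beside isolated sites, and those of replicate 1 alone slightly sparser.

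Replicate 3 peaks outside sites showed less of this crowding. Their density beside isolated sites was 8.60 per Mb within 1 kb (34 peaks), 5.57 at 1 to 2 kb and 4.68 at 50 to 100 kb. In steps of 10 kb it was level, at 4.43 in the first 10 kb and 4.54 on average from 10 to 100 kb. Isolated sites with a single-list region of replicates 1 or 2 within 10 kb numbered 706 (35.7%, 33.6 to 37.9). Their median folds were 4.81 and 7.90 in replicates 1 and 2, below the 6.08 and 8.64 of isolated sites without such a region. The other sites showed the same order: 49.7% had such a region, with 5.39 and 9.09, and those without had 6.43 and 10.1.

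**Figure D4:**
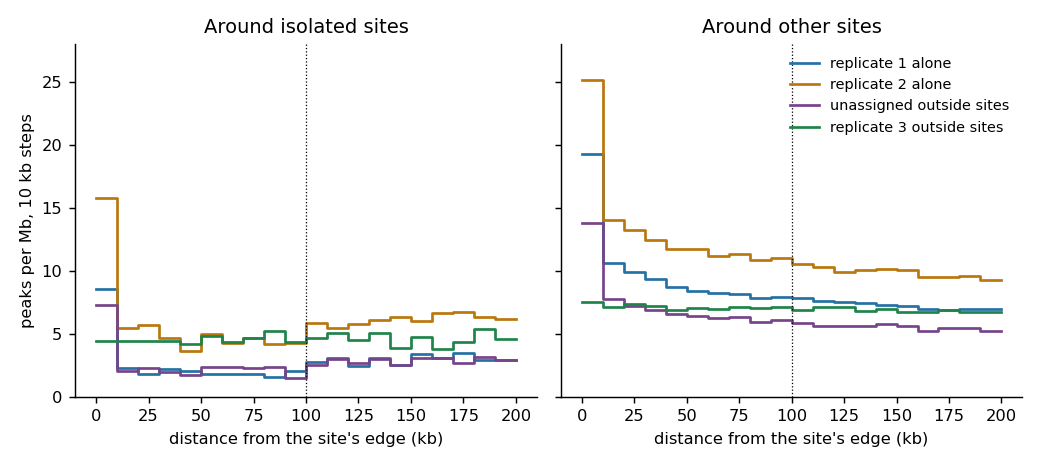
Peaks per Mb (y axis) in 10 kb steps from the site's edge (x axis, kb; dotted line at the 100 kb limit) around isolated sites (left) and other autosomal sites (right), for regions of replicate 1 or 2 alone and for unassigned and replicate 3 peaks that lie outside sites. Around isolated sites the first step stands at 15.8 per Mb for replicate 2 alone and 4.43 for replicate 3, and replicate 1 alone averages 1.94 from 10 to 100 kb.

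Many isolated sites followed each other along the chromosome. Of the 1976, 1237 (62.6%) had an isolated site as the next or previous site on the chromosome, forming 446 runs of at least 2, and 38 runs held 5 or more. This partly follows from the rule, since an isolated site's neighbours lie over 100 kb away on that side. No such share of the other sites is given here for comparison. Within 500 kb, isolated sites had a median of 5 other sites and the other autosomal sites 19, and 210 isolated sites (10.6%) had none.

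The longest runs, named after their values were seen, held 11 sites each. One spanned 3.99 Mb at chr1:185125079-189119309, with replicate 1 folds of 3.02 to 11.8 and replicate 2 folds of 3.67 to 23.2. Of its sites, 2 had a replicate 3 peak and 3 a peak against IgG, where the shares over all isolated sites were 16.6% and 19.6%. The other spanned 5.95 Mb at chr6:77126872-83073806 and included the isolated site with the highest replicate 1 fold, 34.9, although its median was 6.03. Replicate 3 had 2 peaks there and the IgG list 0.

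A run of 9 sites over 3.63 Mb, chr2:149401836-153033038, was stronger. Its folds had medians of 11.1 in replicate 1 (3.67 to 16.5) and 12.3 in replicate 2 (8.16 to 33.0), and 4 of the 9 sites had a replicate 3 peak. Another run of 9, chr20:10965879-16711626, spanned 5.75 Mb with medians of 7.87 and 9.95, and 1 site had a replicate 3 peak. Over all isolated sites 16.6% had one, and differences between the runs were not tested.

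Chromosomes differed widely in the share of their sites that were isolated. It was highest on chromosome 4, with 130 of 1024 sites (12.7%, 10.7 to 14.9), and next on chromosome 13, with 67 of 535 (12.5%, 9.84 to 15.6). It was lowest on chromosome 19, with 18 of 1479 (1.22%, 0.723 to 1.92), followed by chromosome 16 with 30 of 1087 (2.76%, 1.87 to 3.92). Chromosome 19 is the most gene-dense human chromosome, and chromosomes 4 and 13 are among the poorest in genes. Isolation depends on spacing by definition, and chromosome 19 had 25.1 sites per Mb while chromosome 4 had 5.37.

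Isolated sites were also counted per Mb between the first and last peak of each chromosome. It was 0.681 on chromosome 4, 0.701 on chromosome 13, 0.645 on chromosome 22 and 0.306 on chromosome 19, and it was highest on chromosome 12 at 0.882. Chromosome 22, with 20.9 sites per Mb, thus had nearly as many isolated sites per Mb as chromosome 4. The 18 isolated sites of chromosome 19 had the highest median replicate 1 fold of any autosome, 7.90. The other sites of that chromosome also had the highest such median of any autosome, 6.94.

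**Figure D5:**
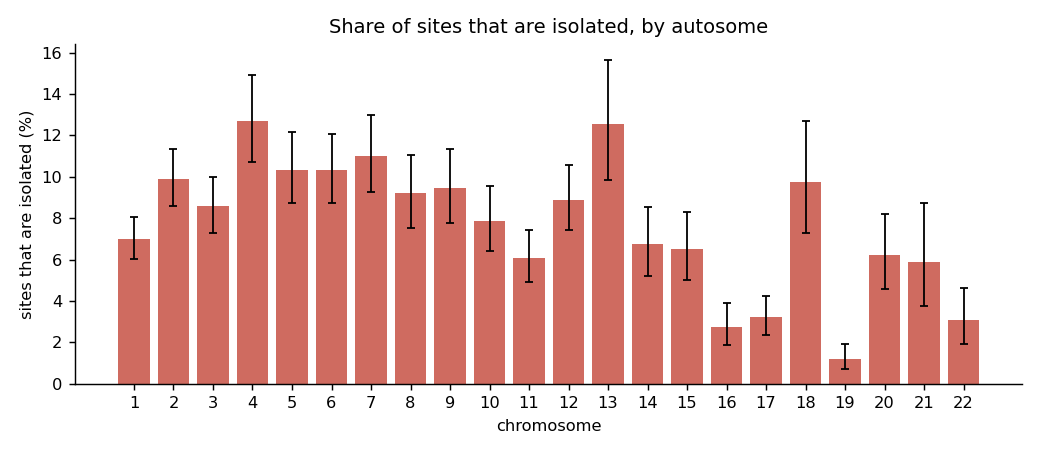
Share of each autosome's sites that are isolated (bars, %, from 0) with exact 95% binomial intervals (lines). Chromosome 4 stands highest at 12.7% and chromosome 19 lowest at 1.22%.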

How the data were processed

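HOXB13-K13ac ChIP-seq peak lists of C4-2B cells were used, 5 of the 6 deposited (the other held no autosomal peak). The submitters' processing notes list MACS2, Bowtie2, BWA and CASAVA 1.4 with the builds hg19 and GRCh37, without roles, thresholds or filters. The fold enrichment of each peak is a ratio deposited by the authors, as are its −log10 p and −log10 q.

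Peaks were merged, sites assigned and distances measured with pandas 2.3.3 and NumPy 2.4.6 in Python 3.11.15, and intervals computed with SciPy 1.17.1. The code recovered all isolated sites planted in simulated lists, and 6 counts on the real lists, that of isolated sites included, equalled those of bedtools 2.31.1. Lists were tied to libraries by spelling in the labels. Shares have exact (Clopper-Pearson) 95% intervals, which cover counting error only. No test was made: replicates 1 and 2 chose the sites, and replicate 3 is 1 library. The sites and measures were chosen with earlier results of these data known. Sites were named by fixed rules: the 10 highest in the lower of 2 folds, the 5 farthest, the 5 highest in replicate 3, the 2 nearest the limit on each side, the median site, and chromosomes of extreme share. The planned motif and transcription start analyses need an hg19 genome and annotation, and were not run.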

Additional observations from a re-analysis of the deposited data

How the results depend on the processing

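The number of isolated sites was 4193 at 50 kb, 812 at 200 kb and 525 when any region of either list counted as a neighbour. In the other 6 settings it stayed within 1.5 times of 1976. It ran from 1867 without replicate 2 (sites of replicates 1 and 3) and 1930 without replicate 1 to 2364 with summits within 100 bp. Without replicate 1 or 2, a site needed a replicate 3 peak instead. A similar count there does not mean the same sites, and their overlap with the 1976 was not measured. Replicate 3 lists did not enter the main rule, so leaving that library out changes no site of it. The share with a replicate 3 peak, 16.6%, was 18.4% at 50 kb, 13.6% at 200 kb, 19.7% when both lists were limited to a −log10 q of 5 or more, 18.5% with any region as neighbour, and 14.2% or 18.6% with the unassigned list in place of replicate 1 or 2. Stricter replicate 3 calls gave 7.54% (summits), 3.69% (q) and 13.4% (equal widths, added after seeing the data). The share called against IgG, 19.6%, was 21.6% at 50 kb, 16.8% at 200 kb, 24.8% at the stricter q, 17.2% with the unassigned list for replicate 1, 48.0% without replicate 1 and 4.25% at an IgG q of 0.05. Presence in the unassigned list, 81.4%, was 84.4% at 50 kb, 79.4% at 200 kb, 85.3% with summits, 92.1% at the stricter q, 98.4% to 99.2% without replicate 2 or 1, and 70.2% with its own summits within 100 bp. The median fold in replicate 1, 5.58, was 5.93 at 50 kb, 5.20 at 200 kb, 5.93 with summits, 6.51 at the stricter q, 5.86 with any region as neighbour, 6.10 with the unassigned list for replicate 2 and 10.2 without replicate 2. That of replicate 2, 8.37, was 8.94, 7.75, 9.12 and 9.91 in the first 4 of these, 7.86 with the unassigned list for replicate 1 and 16.1 without replicate 1. The cause of these differences was not tested. No paired analysis was possible because the lists give no values for IgG or input libraries. Depth is unknown, and whether weak isolated sites absent from replicate 3 were below what its list could show was not tested.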

Other observations

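On chromosome 18, 0 of 48 isolated sites had a replicate 3 peak, which allows a share of up to 7.40% by the exact interval, while 74 of the 445 other sites there had one (16.6%). This chromosome was picked after the shares of all 22 autosomes were seen. On the others the share at isolated sites ran from 8.79% to 31.8%. The chromosome 18 isolated sites had median folds of 4.54 in replicate 1 and 8.08 in replicate 2, below the 5.48 and 9.10 of the other sites there, and 5 of them were called against IgG in replicate 2. In the authors' deposited table without a library label, 36 of these 48 isolated sites had a peak.

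Single-list regions beside isolated sites were as weak as those elsewhere. Within 10 kb, the 338 regions of replicate 1 alone had a median fold of 3.52 (interquartile range 3.05 to 4.16), and the 662 regions 10 to 100 kb away had 3.47. For replicate 2 alone the medians were 4.71 for 625 regions within 10 kb and 4.51 for 1592 regions farther off, with 4.63 over all 16785 such regions.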
